A study of Glycine max with 20 samples.

Results

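Raffinose synthase RS2 (GLYMA06G18890) and stachyose synthase (GLYMA19G40550) are 2 soybean genes whose products make the sugars of the raffinose family in the seed. They were taken by their identifiers from the deposited tables, where they are 2 of 57274 genes, and both passed the filter on low counts that 40721 genes passed. The identifiers place RS2 on chromosome 6 and the stachyose synthase gene on chromosome 19. RNA-seq was performed on developing seeds of the soybean lines cgy-2-NIL and DN47 at 5 stages, with 2 libraries for each line and stage, which gives 20 libraries in 10 groups. The stages were day 18, day 25, day 35, day 50, and day 55 after flowering (days after flowering, DAF). cgy-2-NIL is a near-isogenic line that is homozygous for the recessive cgy-2 allele and makes no α-subunit of β-conglycinin, a major storage globulin. DN47 (Dongnong47), the cultivar to which it was repeatedly backcrossed, carries the normal allele. The labels name no treatment for either line. The study places the donor segment that distinguishes the lines on chromosome 20, so a line difference cannot be assigned to cgy-2 apart from the rest of that segment, and neither gene lies on that chromosome. Cotyledons and seed coat were pooled from all seeds of an age, and the study describes the 2 libraries of a group as separate biological samples.

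Raffinose synthase moves a galactosyl group from galactinol to sucrose and so forms raffinose. Stachyose synthase adds a further galactosyl group from galactinol to raffinose and so forms stachyose. In legume seeds these sugars accumulate late in maturation, around the time the seed dries, and serve as a carbon store for germination, and in people and pigs, who cannot digest them, they are fermented in the gut.

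Library totals ran between 18492047 and 30555808 counts. RPKM, the read count scaled to the length of the gene and the total count of the library, is given as the authors computed it. Counts were scaled between libraries by the TMM method of edgeR, with factors between 0.614 and 1.58. The factors were 1.54 to 1.58 at 18 DAF, 0.824 to 1.04 at 35 DAF, and 0.694 to 0.803 at 55 DAF. RPKM does not include them, so its changes between stages differ from those of TMM-scaled counts. The 6 storage protein genes used as markers of seed filling had 279.9 to 56799 RPKM in every library at 35 and 50 DAF and at most 1.73 RPKM at 18 DAF. The α-subunit gene GLYMA20G28660, the check of the line label, had 0 to 8 counts in the cgy-2-NIL libraries and 39 to 3825 counts in the DN47 libraries from 25 to 55 DAF. At 18 DAF it had 0 counts in all libraries, so the labels of that stage could not be checked by it. Among all genes, the libraries spread mainly along principal component 1, with 66.1% of the variance, on which the score increased with seed age. On this axis the cgy-2-NIL libraries at 50 DAF had scores of 130.4 and 197, against 129 and 112 in DN47, so that replicate 2 of cgy-2-NIL stood apart towards the later stage. At 55 DAF the scores were 351 and 357 in cgy-2-NIL, against 259 and 272 in DN47. In seeds sampled whole, fewer cells of a type and less RNA per cell cannot be told apart.

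Raffinose synthase RS2 was a low-abundance transcript in the youngest seeds and one of the most abundant transcripts in the oldest. At 18 DAF it had 1.71 and 1.74 RPKM in the cgy-2-NIL libraries, against 2.44 and 3.21 RPKM in DN47, so cgy-2-NIL was the lower without overlap, a separation that 55.2% of all genes showed in either direction. At 25 DAF it had 9.54 and 8.67 RPKM in cgy-2-NIL, against 9.45 and 7.91 RPKM in DN47, and the lines overlapped. At 35 DAF the values were 9.96 and 7.79 RPKM in cgy-2-NIL and 5.67 and 7.39 RPKM in DN47. Here cgy-2-NIL was the higher by a small margin, a separation that 56.3% of all genes showed in either direction. By 50 DAF it had reached 24.4 and 45.8 RPKM in cgy-2-NIL, against 19.7 and 21.6 RPKM in DN47, with replicate 2 of cgy-2-NIL well above the other libraries. At 55 DAF it stood at 507 and 722 RPKM in cgy-2-NIL, against 174 and 215 RPKM in DN47, far apart. Both lines thus had an early step up, levels of 5.67 to 9.96 RPKM at 25 and 35 DAF, and a steep increase after that. The mean RPKM at 55 DAF was 357 times that at 18 DAF in cgy-2-NIL and 68.9 times in DN47. In TMM-scaled counts this rise was larger in both lines. The line difference at 18 DAF, on which these folds also rest, did not pass the test below. Among the genes of a library, RS2 ranked 29016 and 29021 by RPKM in the cgy-2-NIL libraries at 18 DAF. It ranked within the 152 highest genes in both cgy-2-NIL libraries at 55 DAF and within the 295 highest in both DN47 libraries. These levels rest on 143 to 48072 counts per library.

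The stachyose synthase gene followed another course until 35 DAF and then joined the late increase. At 18 DAF it had 9.96 and 7.78 RPKM in the cgy-2-NIL libraries, against 7.78 and 8.63 RPKM in DN47, and the lines overlapped. It had 5.95 and 5.03 RPKM in cgy-2-NIL and 4.68 and 4.97 RPKM in DN47 by 25 DAF. At 35 DAF the values were 2.90 and 2.59 RPKM in cgy-2-NIL, against 1.95 and 2.25 RPKM in DN47. Both cgy-2-NIL libraries were above both DN47 libraries at 25 and at 35 DAF, by little, and 55.6% of all genes at 25 DAF and 56.3% at 35 DAF showed such a separation in either direction. At 50 DAF the gene had 15.2 and 58.6 RPKM in cgy-2-NIL, against 10.9 and 9.21 RPKM in DN47, and replicate 2 of cgy-2-NIL stood far above the rest. At 55 DAF it had 701 and 741 RPKM in cgy-2-NIL, against 272 and 324 RPKM in DN47. The lowest level in both lines was at 35 DAF, when all 6 storage protein markers were already abundant. The mean RPKM at 35 DAF was 0.309 times that at 18 DAF in cgy-2-NIL and 0.256 times in DN47. In TMM-scaled counts this fall was smaller, and neither of its steps was called in the test on all 20 libraries below. From 35 to 55 DAF the mean RPKM grew to 263 times in cgy-2-NIL and 142 times in DN47. In TMM-scaled counts this rise was larger in both lines. The counts were 128 to 57274 per library. At 55 DAF the gene ranked within the 114 highest in both cgy-2-NIL libraries and within the 207 highest in both DN47 libraries.

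**Figure D1:**
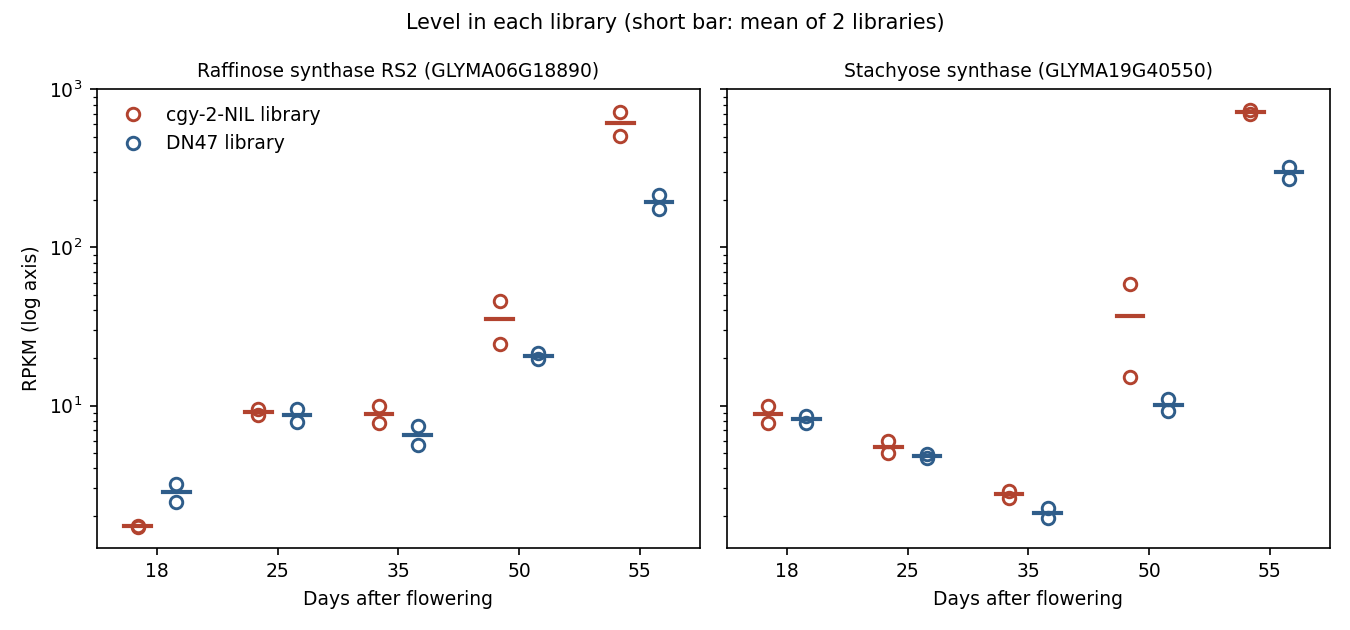
RPKM (log axis) of raffinose synthase RS2 (left) and stachyose synthase (right) in each library against days after flowering, with cgy-2-NIL in red to the left of DN47 in blue and a short bar at the mean of 2 libraries. RS2 steps up by 25 DAF and again after 35 DAF, while stachyose synthase is lowest at 35 DAF (1.95 to 2.90 RPKM) and reaches 272 to 741 RPKM at 55 DAF.

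Ordered from the highest mean down, RS2 stood first in cgy-2-NIL (615 ± 152 RPKM) and then in DN47 (195 ± 28.8 RPKM; SD, n = 2 each) at 55 DAF. cgy-2-NIL and then DN47 at 50 DAF came next. Below them, cgy-2-NIL at 25 DAF, cgy-2-NIL at 35 DAF, and DN47 at 25 DAF, with means of 8.68 to 9.10 RPKM, overlapped as neighbours in their libraries. DN47 at 35 DAF and the 2 groups at 18 DAF were the lowest. This order is by RPKM. TMM-scaled counts placed RS2 higher at 35 than at 25 DAF in both lines, by values given below that did not pass the test. The order for stachyose synthase began with cgy-2-NIL (721 ± 28.1 RPKM) and DN47 (298 ± 36.9 RPKM) at 55 DAF, followed by cgy-2-NIL at 50 DAF (36.9 ± 30.7 RPKM). DN47 at 50 DAF, cgy-2-NIL at 18 DAF, and DN47 at 18 DAF, with means of 8.21 to 10.1 RPKM, overlapped as neighbours in that order. Both lines at 25 DAF and then both at 35 DAF were below these, in each case with cgy-2-NIL above DN47 and no overlap. As given above, 55.6% of all genes at 25 DAF and 56.3% at 35 DAF were separated by line in either direction.

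The change between neighbouring stages was tested within each line in edgeR (quasi-likelihood F test). P-values were adjusted by Benjamini-Hochberg over the 40721 genes and called under 0.05. Each value is a log2 fold change of TMM-scaled counts, later over earlier stage. RS2 rose between 18 and 25 DAF by 2.54 in cgy-2-NIL (SE 0.27, adjusted p = 3.32e-06) and by 1.82 in DN47 (SE 0.26, adjusted p = 7.49e-05). In these contrasts 20.2% of all genes were called higher in cgy-2-NIL and 16.3% in DN47. Over the same interval the stachyose synthase value was -0.55 in cgy-2-NIL (adjusted p = 0.302) and -0.57 in DN47 (adjusted p = 0.314), so its lower level did not pass the test. Between 25 and 35 DAF neither gene passed in either line, where 41.4% of all genes were called in cgy-2-NIL and 33.4% in DN47. The RS2 values were 0.54 in cgy-2-NIL (adjusted p = 0.0935) and 0.25 in DN47 (adjusted p = 0.486), and the stachyose synthase values were -0.41 (adjusted p = 0.463) in cgy-2-NIL and -0.53 (adjusted p = 0.378) in DN47. The sign for RS2 in this interval depended on the scaling, since with the total count alone the values were -0.037 in cgy-2-NIL and -0.41 in DN47. The fit shares its estimate of the spread among all stages. Without either cgy-2-NIL library of 50 DAF, stachyose synthase was called lower at 25 than at 18 DAF, by -0.55 in cgy-2-NIL and -0.57 in DN47. It was then also called lower at 35 than at 25 DAF in DN47 (-0.54). When only the 4 libraries of each comparison were fitted, the stachyose synthase gene fell between 18 and 25 DAF by 0.54 in cgy-2-NIL (adjusted p = 0.0263) and by 0.55 in DN47 (adjusted p = 0.000862), and between 25 and 35 DAF by 0.41 in cgy-2-NIL (adjusted p = 0.0485) and by 0.58 in DN47 (adjusted p = 0.00315). These fits called 18977 of 38691 genes in cgy-2-NIL and 17751 of 37358 in DN47 for the earlier interval, and 15601 of 36445 in cgy-2-NIL and 15454 of 35165 in DN47 for the later. RS2 was also called higher at 35 than at 25 DAF in cgy-2-NIL in this fit (0.54, adjusted p = 0.00824) and without either cgy-2-NIL library of 50 DAF (0.54, adjusted p = 0.0269 in both).

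From 35 DAF on both genes rose in both lines. Between 35 and 50 DAF, RS2 rose by 2.44 on the log2 scale in cgy-2-NIL (SE 0.26, adjusted p = 1.17e-06) and by 2.03 in DN47 (SE 0.26, adjusted p = 1.73e-05). Stachyose synthase rose by 4.19 in cgy-2-NIL (SE 0.45, adjusted p = 4.29e-06) and by 2.64 in DN47 (SE 0.44, adjusted p = 0.000396). Of all genes, 25.8% were called higher in this interval in cgy-2-NIL and 16.2% in DN47. The final 5 days brought a further steep rise of both. Between 50 and 55 DAF, RS2 rose by 4.12 in cgy-2-NIL (SE 0.27, adjusted p = 2.68e-09) and by 2.98 in DN47 (SE 0.26, adjusted p = 3.3e-07). Stachyose synthase rose by 4.28 in cgy-2-NIL (SE 0.44, adjusted p = 1.23e-06) and by 4.61 in DN47 (SE 0.45, adjusted p = 2.63e-06). In this interval 28.4% of all genes were called higher in cgy-2-NIL and 22.7% in DN47, so a late rise was common, but few genes rose by as much. The share of genes with a higher fitted log2 fold change than RS2 was 1.57% in cgy-2-NIL and 2.38% in DN47, and the share above stachyose synthase was 1.39% in cgy-2-NIL and 0.874% in DN47. These rises, and those of both genes between 35 and 50 DAF, remained called in all 29 alternative analyses.

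**Figure D2:**
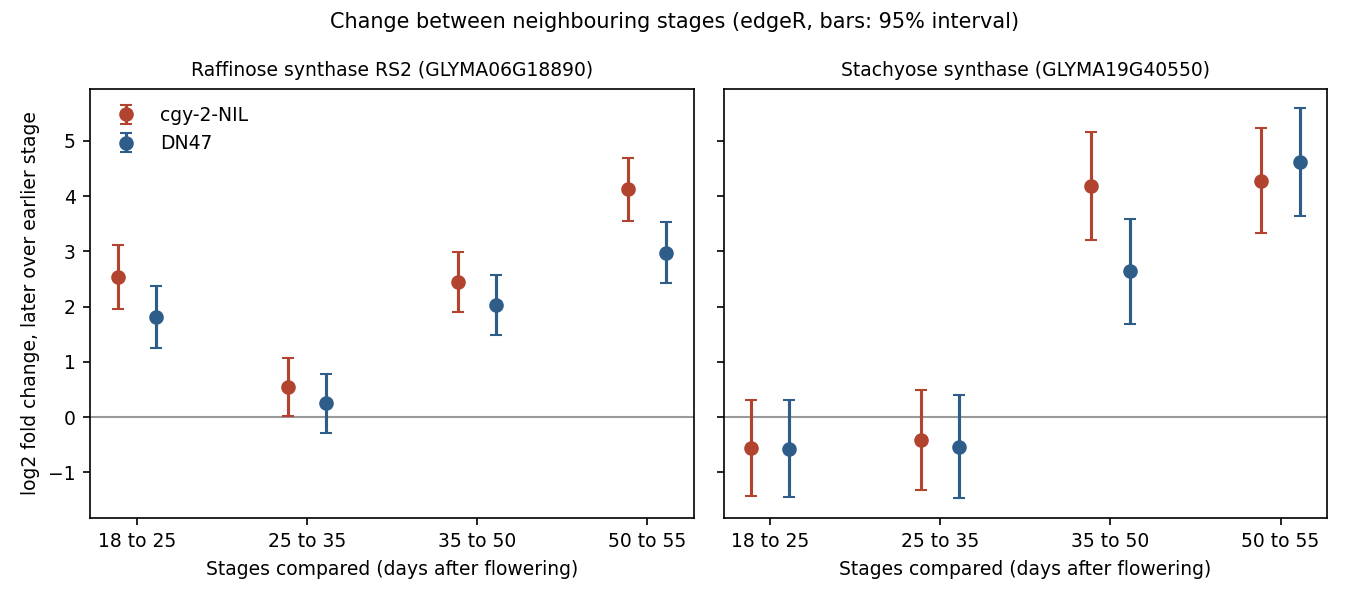
Log2 fold change of TMM-scaled counts between neighbouring stages (later over earlier, edgeR) for raffinose synthase RS2 (left) and stachyose synthase (right), cgy-2-NIL in red to the left of DN47 in blue, with bars for the 95% interval. The intervals lie above 0 for RS2 between 18 and 25 DAF and for both genes after 35 DAF, and those of stachyose synthase before 35 DAF include 0. Between 25 and 35 DAF the RS2 interval lies just above 0 in cgy-2-NIL (0.014 to 1.07) and includes 0 in DN47.

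While these 2 genes rose, most of the cupin genes listed by the study fell. Of these 18 genes, a list chosen on these samples, 15 fell and 1 rose between 50 and 55 DAF in cgy-2-NIL, and 12 fell and 1 rose in DN47. Among all genes, 33.8% fell in cgy-2-NIL and 24.8% in DN47 over the same days. The median log2 fold change of the list was -3.57 in cgy-2-NIL, where that of all genes was -0.082, and -1.64 in DN47, where that of all genes was 0. In the line comparison at 55 DAF, 13 of the 18 were called lower in cgy-2-NIL and 0 higher, where 24.4% of all genes were called lower.

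The lines were then compared at the same stage, as the study was designed to do. At 55 DAF both genes were higher in cgy-2-NIL. RS2 was 3.56-fold higher (95% interval 2.48 to 5.11; log2 fold change 1.83, SE 0.25, adjusted p = 1.63e-05), and stachyose synthase was 2.72-fold higher (1.51 to 4.90; log2 fold change 1.44, SE 0.39, adjusted p = 0.00799). The libraries of the lines did not overlap in RPKM for either gene, which held for 68.9% of all genes. At this stage 46.1% of all genes were called and 21.8% of all genes were called higher, so a call by itself did not set the genes apart. A larger positive fitted difference was found for 4.89% of genes beyond RS2 and for 7.11% beyond stachyose synthase. The call for RS2 was kept in all 30 alternatives, with log2 fold changes of 1.52 to 2.08. That for stachyose synthase was lost only without replicate 1 of DN47 at 55 DAF (1.31, adjusted p = 0.0703). The libraries of the lines also differed at this stage in their score on principal component 1, as given above, and in the cupin genes. The part of either in the line difference of these 2 genes was not tested.

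At 50 DAF stachyose synthase was 3.43-fold higher in cgy-2-NIL (1.87 to 6.28; log2 fold change 1.78, SE 0.41, adjusted p = 0.0102), and RS2 had a log2 fold change of 0.69 (SE 0.24, adjusted p = 0.0648). In this contrast 16.4% of all genes were called and 8.54% were called higher. Without either cgy-2-NIL library of 55 DAF the RS2 value was also 0.69 and was called. Both values turned on the 2 cgy-2-NIL libraries of 50 DAF, which differed from each other. Replicate 2 had 3.72 times the TMM-scaled level of replicate 1 for stachyose synthase, a gap reached by 2.49% of genes in that group, and 1.81 times for RS2, a gap reached by 15.9%. These shares count gaps in either direction among the 36017 genes with a mean of at least 1 RPKM in any group. Without replicate 2 the stachyose synthase difference was 0.54 (adjusted p = 0.115) and that of RS2 0.20 (adjusted p = 0.684). Without replicate 1 they were 2.44 (adjusted p = 2.72e-07) for stachyose synthase and 1.06 (adjusted p = 0.00183) for RS2. The stachyose synthase call was also lost without replicate 2 of DN47 at 50 DAF (1.56) and in a fit to the 4 libraries of 50 DAF alone (1.76, adjusted p = 0.203). That fit to 4 libraries called 73 of 31475 genes, against 6694 of 40721 in the fit to all libraries.

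At the 3 earlier stages neither gene passed the test. For RS2 the log2 fold change was -0.74 at 18 DAF (95% interval -1.32 to -0.16, adjusted p = 0.310). It was -0.019 at 25 DAF (-0.55 to 0.51, adjusted p = 0.983), and it was 0.27 at 35 DAF (-0.26 to 0.81, adjusted p = 0.512). With only the 4 libraries of 18 DAF in the fit, RS2 was called lower in cgy-2-NIL (-0.75, adjusted p = 0.00543), in a fit that called 4739 genes against 487. For stachyose synthase the log2 fold change was 0.087 at 18 DAF (-0.77 to 0.95, adjusted p = 0.987). It was 0.10 at 25 DAF (-0.78 to 0.99, adjusted p = 0.922), and it was 0.22 at 35 DAF (-0.73 to 1.18, adjusted p = 0.795). The shares of all genes called at these stages were 1.2%, 8.07%, and 14.7%. Averaged over the stages in an additive model, the line difference was 0.42 for RS2 (SE 0.23, adjusted p = 0.229) and 0.74 for stachyose synthase (SE 0.24, adjusted p = 0.0519), where 13.5% of genes were called. The stachyose synthase value passed the threshold in 9 of 28 alternatives.

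**Figure D3:**
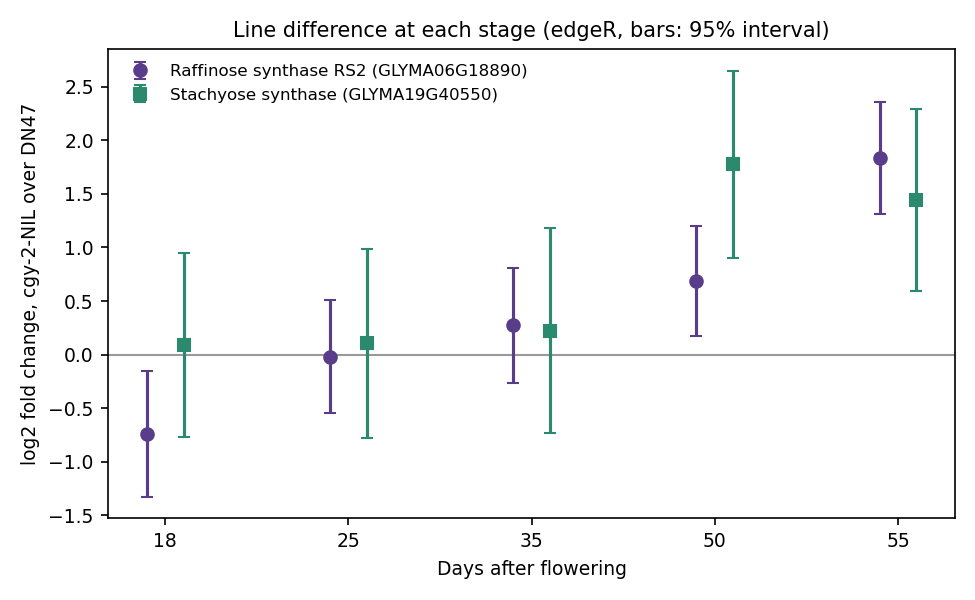
Log2 fold change of cgy-2-NIL over DN47 at each stage (edgeR) for raffinose synthase RS2 (circles) and stachyose synthase (squares), with bars for the 95% interval. RS2 runs between -0.74 at 18 DAF and 1.83 at 55 DAF, and stachyose synthase is near 0 until 35 DAF and is 1.78 at 50 DAF and 1.44 at 55 DAF.

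Whether the line difference itself changed with the stage was tested by the interaction of line and stage. For RS2 the 4 interaction terms together gave F = 14.1 (adjusted p = 0.000492). For stachyose synthase they gave F = 4.10 (adjusted p = 0.0495), a value above the threshold in 22 of 28 alternatives. The test called 44.5% of all genes. Taken step by step, the RS2 rise between 50 and 55 DAF was larger in cgy-2-NIL than in DN47 by 1.15 on the log2 scale (SE 0.34, adjusted p = 0.0210), where 25.6% of genes were called. This difference was 0.77 without replicate 1 of cgy-2-NIL at 50 DAF (adjusted p = 0.0623), 0.83 without replicate 2 of cgy-2-NIL at 55 DAF (adjusted p = 0.111), 1.09 without replicate 1 of DN47 at 50 DAF (adjusted p = 0.0651), and 0.98 without replicate 1 of DN47 at 55 DAF (adjusted p = 0.0966). With scaling by the total count alone it was 0.89 (adjusted p = 0.0767). The stachyose synthase rises in this interval differed by -0.33 (95% interval -1.52 to 0.86, adjusted p = 0.745). For that gene the direction turned with the cgy-2-NIL library of 50 DAF that was kept, since the difference was 0.90 without replicate 2 (adjusted p = 0.0127) and -0.998 without replicate 1 (adjusted p = 0.00650). Between 35 and 50 DAF the rise of stachyose synthase differed between the lines by 1.55 (adjusted p = 0.128) and that of RS2 by 0.41 (adjusted p = 0.520), where 8.26% of genes were called.

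Since both genes were read in the same libraries, their ratio per gene length is free of scaling between libraries. RS2 over stachyose synthase in RPKM was 0.171 to 0.372 in the 4 libraries of 18 DAF, 1.59 to 2.02 in those of 25 DAF, and 2.90 to 3.44 in those of 35 DAF. It was 0.781 to 2.35 in those of 50 DAF and 0.641 to 0.974 in those of 55 DAF. Stachyose synthase was thus the more abundant transcript at 18 DAF, RS2 at 25 and 35 DAF, and stachyose synthase again at 55 DAF, in all libraries of both lines. At 50 DAF the ratio was 1.60 and 0.781 in cgy-2-NIL, against 1.80 and 2.35 in DN47, so that replicate 2 of cgy-2-NIL was the library on the side of the later stage. The mean log2 ratio over stages was -0.0056 in cgy-2-NIL and 0.27 in DN47. The difference was -0.27, and an exact two-sided permutation test that exchanged the line labels within stages (7776 arrangements) gave p = 0.136. By stage the difference was -0.81 for 18 DAF, -0.11 for 25 DAF, 0.056 for 35 DAF, -0.88 for 50 DAF, and 0.36 for 55 DAF. The only stage left out as a whole was 55 DAF, which had the largest difference of opposite sign to the mean (0.36). Without 55 DAF the mean difference was -0.43, and the exact permutation test gave p = 0.0340. This value thus rests on removing the stage that went the other way. In 23 of 24 alternatives the difference stayed negative and did not pass the threshold, as with all stages.

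**Figure D4:**
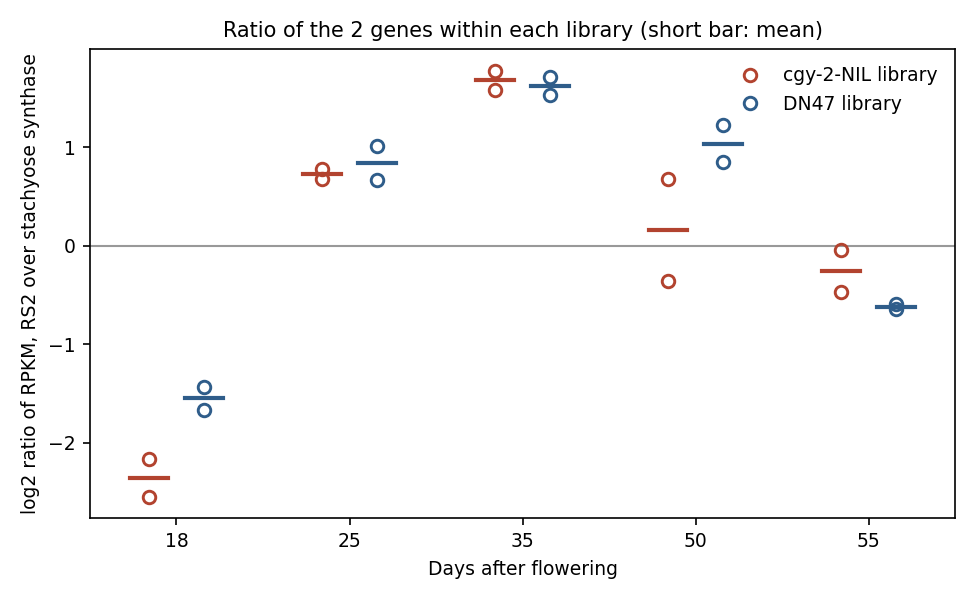
Log2 ratio of the RPKM of raffinose synthase RS2 over stachyose synthase in each library against days after flowering, cgy-2-NIL in red to the left of DN47 in blue, with a short bar at the mean. Libraries at 18 and 55 DAF lie below 0 and those at 25 and 35 DAF above it, and at 50 DAF only replicate 2 of cgy-2-NIL lies below 0.

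Across the 20 libraries the log2 TMM-scaled levels of the 2 genes had a Pearson correlation of 0.904. The libraries share stages and lines, so this is a description. Many genes followed either one more closely, and among 36016 other genes with a mean of at least 1 RPKM in a group, stachyose synthase was number 2639 in likeness to RS2 and RS2 number 2475 in likeness to stachyose synthase. A correlation above 0.95 was found for 680 genes with RS2 and for 786 with stachyose synthase. The 5 genes most like RS2 were GLYMA14G36400, GLYMA16G21950, GLYMA08G26100, GLYMA03G02940, and GLYMA13G17150, with correlations of 0.990 to 0.992. Of these, GLYMA08G26100 came to the highest level, with a mean of 905 RPKM in cgy-2-NIL and 438 RPKM in DN47 at 55 DAF. At 18 DAF its mean was 0.390 RPKM in cgy-2-NIL and 0.792 RPKM in DN47.

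The 5 genes most like stachyose synthase were GLYMA03G04920, GLYMA04G40300, GLYMA11G36040, GLYMA01G44650, and GLYMA05G24230, with correlations of 0.991 to 0.992. GLYMA03G04920 had the same low point, with means of 2.08 RPKM in cgy-2-NIL and 1.47 RPKM in DN47 at 35 DAF and 584 RPKM in cgy-2-NIL and 262 RPKM in DN47 at 55 DAF. GLYMA11G36040 was at 0 counts in all libraries to 35 DAF and had 130 RPKM in cgy-2-NIL and 26.5 RPKM in DN47 at 55 DAF. The members of both sets were chosen for their pattern in the same libraries, so their line differences are not given as support.

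None of the genes with the nearest identifiers had a late rise of this size. Beside RS2, GLYMA06G18870, GLYMA06G18880, and GLYMA06G18901 stayed at or below 2.03 RPKM in every library, and GLYMA06G18910 had group means of 6.71 to 14.4 RPKM. GLYMA06G18880 fell between 50 and 55 DAF in both lines and was lower in cgy-2-NIL at 55 DAF (adjusted p = 0.000173), with means of 0.0113 RPKM in cgy-2-NIL, close to the limit of detection, and 0.330 RPKM in DN47.

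Beside stachyose synthase, GLYMA19G40510 rose between 50 and 55 DAF by 0.77 on the log2 scale in cgy-2-NIL and by 0.78 in DN47, and was slightly higher in cgy-2-NIL at 55 DAF (0.28, adjusted p = 0.0213). GLYMA19G40520 and GLYMA19G40560 fell in both lines over these days and were lower in cgy-2-NIL at 55 DAF, with log2 fold changes of -0.91 (adjusted p = 1.12e-06) and -1.26 (adjusted p = 0.000385). The study annotates GLYMA19G40560 as a WRKY transcription factor. Its mean at 55 DAF was 0.968 RPKM in cgy-2-NIL and 2.62 RPKM in DN47, the opposite direction from its neighbour stachyose synthase. GLYMA19G40570 had -0.30 in cgy-2-NIL (adjusted p = 0.0587) and -0.35 in DN47 (adjusted p = 0.0440) between 50 and 55 DAF, with a line difference of 0.073 at 55 DAF (adjusted p = 0.723).

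The levels of both genes can also be set beside the position of each library on principal component 1 of all genes, which moves with stage and line at once. After 35 DAF the groups with higher scores had higher levels of both genes. Replicate 2 of cgy-2-NIL at 50 DAF, with a score of 197, lay between the other libraries of 50 DAF (112 to 130.4) and those of 55 DAF (259 to 357). Its 45.8 RPKM of RS2 and 58.6 RPKM of stachyose synthase likewise lay between the levels of those libraries. How far the score accounts for the line difference was not tested.

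**Figure D5:**
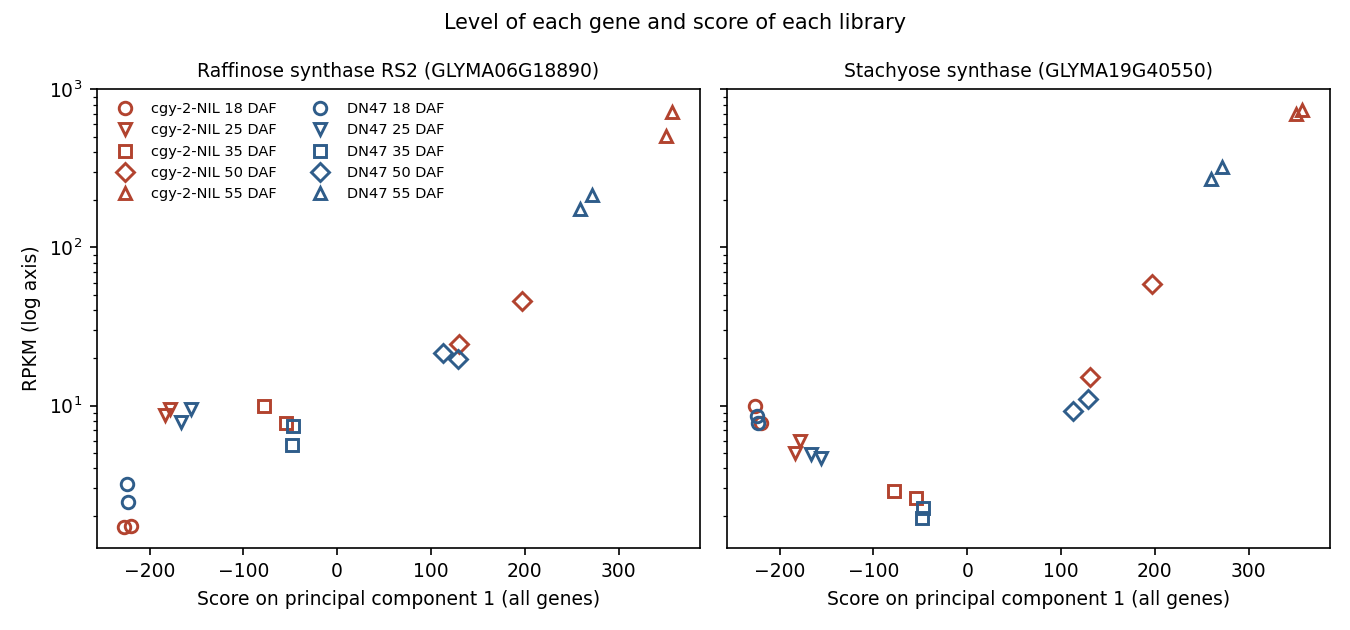
RPKM (log axis) of raffinose synthase RS2 (left) and stachyose synthase (right) against the score of the library on principal component 1 of all genes, cgy-2-NIL in red and DN47 in blue, with a symbol for each stage (DAF, days after flowering). The cgy-2-NIL libraries at 55 DAF lie farthest to the right (351 and 357) and highest, and replicate 2 of cgy-2-NIL at 50 DAF lies alone at 197.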

How the data were processed

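The authors cleaned the reads, mapped them to the soybean genome and counted reads per gene with HTSeq. The deposited counts are whole numbers and were not normalized. The aligner and strand setting are not given in the sources used here. The deposited RPKM values equal the count divided by the length of the gene and the total count of the library (largest relative deviation 5.92e-15), so they carry no other scaling. All columns were assigned to a group by their labels.

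Genes passing filterByExpr were tested with TMM scaling in edgeR 4.0.16, run in R 4.3.3, by the quasi-likelihood F test with robust dispersions. A single model held the 10 group means (10 residual degrees of freedom), with Benjamini-Hochberg adjustment over 40721 genes and a threshold of 0.05. The line difference across stages came from an additive model of line and stage. The study's own package, DESeq, was not run. Ratios used RPKM. Likeness used log2 TMM-scaled CPM with a prior count of 2. Intervals are 95%. The procedure was tested on simulated counts. Alternatives were other scalings and filters, DESeq2 1.42.0, limma-voom (limma 3.58.1), replicate blocks, fits of 4 libraries, and leaving out each library. For the ratio they were a replicate block, leaving out each library or 55 DAF, a pseudocount of 0.5 counts, and counts not per length. Figures used Python 3.11.15 and matplotlib 3.10.9. Replicate numbers do not pair the libraries: the correlation of deviations of like numbers was between -0.226 and 0.0853 over the stages.

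The genes and lists were chosen with earlier results of these data known. The genes named are these 2, the 5 most alike to each, and the 2 nearest identifiers on each side. Of 59048 genes in the reference table at hand (RefSeq), 0 carried an identifier of the files, so other genes of the pathway, seed coat markers, coordinates and sequences were not analysed here.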

Additional observations from a re-analysis of the deposited data

Results flagged for a closer look

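The change between 50 and 55 DAF in raffinose synthase RS2 (GLYMA06G18890) differed between the lines by 1.15 on the log2 scale, larger in cgy-2-NIL, in a test of the difference itself (adjusted p = 0.0210). It was no longer called in 5 of 28 alternatives, with values of 0.77 to 1.09. The joint test of line by stage passed the threshold for RS2 (adjusted p = 0.000492) and, narrowly, for stachyose synthase (GLYMA19G40550, adjusted p = 0.0495). The stachyose synthase value was above the threshold in 22 of 28 alternatives. With 2 libraries per group, no group was large enough to test for a library far from the others.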

How the results depend on the processing

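For raffinose synthase RS2 (GLYMA06G18890) and stachyose synthase (GLYMA19G40550), the rises after 35 DAF, the RS2 rise between 18 and 25 DAF and the RS2 line difference at 55 DAF kept their direction and call under every alternative run. The RS2 interaction, a joint test without a direction, kept its call under every alternative run. With 2 libraries per group, the 95% interval of the stachyose synthase line difference at 35 DAF ran from 0.601-fold to 2.27-fold. Causes of the changes below were not tested.

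Scaling by the total count alone moved the median log2 change of all genes between 25 and 35 DAF to -0.58 in cgy-2-NIL and -0.63 in DN47, and the line difference at 55 DAF to -0.18. Under it, GLYMA06G18890 had 0.068 for the line difference at 25 DAF, -0.037 in cgy-2-NIL and -0.41 in DN47 between 25 and 35 DAF, and 0.89 for the difference in the change between 50 and 55 DAF (adjusted p = 0.0767). GLYMA19G40550 had -1.20 between 25 and 35 DAF in DN47, an adjusted interaction p of 0.0836 and a difference across stages of 0.77. That difference was 0.75 with DESeq2 size factors, 0.74 with at least 10 counts in every library, 0.74 in DESeq2's test and 0.75 in limma-voom, all past the threshold. With at least 10 counts in every library the RS2 difference at 25 DAF was 0.0045. The adjusted stachyose synthase interaction p was 0.106 without a filter and 0.207 in limma-voom, and DESeq2 gave 1.48 for its difference in the change between 35 and 50 DAF.

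With only the 4 libraries of a comparison, GLYMA06G18890 had -0.75 at 18 DAF and 0.54 between 25 and 35 DAF in cgy-2-NIL, both called. GLYMA19G40550 had 1.76 at 50 DAF, no longer called, and -0.54 and -0.41 in cgy-2-NIL and -0.55 and -0.58 in DN47 over the 2 early intervals, all called. The replicate block gave an adjusted interaction p of 0.0703 for GLYMA19G40550, and a replicate block within the stage gave 1.51 at 50 DAF (adjusted p = 0.0840). No other call on these genes changed under a block. At 18 DAF the correlation of like-numbered deviations was -0.226, and crossing the numbers gave 344 calls, against 321 with them as labelled and 487 without a block.

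Leaving out 1 library at a time gave these ranges. For GLYMA06G18890 the line difference was -0.20 to 0.18 at 25 DAF and 0.20 to 1.06 at 50 DAF, the change between 25 and 35 DAF in cgy-2-NIL was 0.45 to 0.62, and the difference in the change was -0.080 to 0.78 between 35 and 50 DAF and 0.77 to 1.63 between 50 and 55 DAF. For GLYMA19G40550 the line difference was -0.11 to 0.25 at 18 DAF, -0.033 to 0.23 at 25 DAF, 0.54 to 2.44 at 50 DAF, 1.31 to 1.59 at 55 DAF and 0.48 to 0.81 across stages. Its change between 18 and 25 DAF was -0.72 to -0.36 in cgy-2-NIL and -0.64 to -0.50 in DN47, and between 25 and 35 DAF it was -0.59 to -0.48 in DN47. Its difference in the change was -0.15 to 0.21 between 18 and 25 DAF, -0.0079 to 0.26 between 25 and 35 DAF, 0.31 to 2.21 between 35 and 50 DAF and -0.998 to 0.90 between 50 and 55 DAF, and its adjusted interaction p was 2.32e-06 to 0.123. The ratio of RS2 to stachyose synthase differed by -0.43 without 55 DAF, the stage with the largest difference of opposite sign. The other 23 of 24 alternatives for the ratio kept the result of the full test.

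The number of genes called at 18 DAF was 487, and 69 to 4739 over the alternatives. It was 3286 and as low as 217 at 25 DAF, 5986 and as low as 1816 at 35 DAF, and 6694 and as low as 73 (4 libraries) at 50 DAF.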
